A study of Mus musculus with 6 samples.

Results

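The genes described here encode transcription factors that set epithelial or mesenchymal fate, measured in mouse squamous cell carcinoma (SCC) cells with and without focal adhesion kinase (FAK). They were taken from a list of 10 Ensembl gene identifiers, namely Snai1, Snai2, Zeb1, Zeb2, Twist1, Grhl2, Ovol1, Trp63, Klf4 and Sox2. Of these, 9 had a value among the 17204 genes measured, and Sox2 was not analysed here. SCC FAK-/- cells came from a skin carcinoma of the FVB strain with the genotype K14CreER FAKflox/flox, induced chemically with DMBA and TPA, in which the keratin 14 promoter drives a tamoxifen-dependent Cre recombinase. Cultured carcinoma cells were treated with 4-hydroxytamoxifen, and the FAK-null cells used are 1 clone. SCC FAK-wt cells are the same clone after wild-type FAK was put back by retroviral transduction, and they were kept in 0.25 mg/ml hygromycin. Transduction cannot be told apart from the return of FAK, nor can the antibiotic if SCC FAK-/- cells were grown without it, which the labels do not state. RNA from 3 samples of each cell line, labelled as biological replicates, was measured on GeneChip mouse arrays from Affymetrix, 1 for each sample, and every value below is a log2 expression value. Symbols could be given here to the listed genes alone, so the FAK gene itself, the keratins that define squamous cells and the downstream junction and matrix genes were not analysed here, and the cell type label was not checked against its defining markers.

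Epithelial to mesenchymal transition is the process by which epithelial cells lose junctions and polarity and gain motility. The Snail, ZEB and Twist families drive it by binding E-box sequences in the regulatory regions of epithelial genes, E-cadherin among them, and repressing them. Grainyhead-like and Ovo-like factors oppose it, p63 maintains the basal layer of stratified epithelia, and Klf4 promotes terminal differentiation of keratinocytes. In skin carcinoma the balance between these groups distinguishes well-differentiated squamous tumors from spindle-shaped ones. FAK transmits signals from integrins at cell-matrix adhesions, and the comparison of the cell lines addresses whether these fate regulators change in transcript level with FAK.

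None of the fate transcription factors (0 of 9) passed an adjusted p of 0.05 for the difference between the cell lines (limma with Benjamini-Hochberg adjustment over all genes), a level passed by 1.92% of all genes in either direction. Likewise 0 of 9 passed an unadjusted limma p of 0.01, against 6.85% of all genes. The study's methods name a p below 0.01 and give neither the test nor any adjustment. At an unadjusted limma p of 0.05 the count was again 0 of 9, against 15.5%. The cell lines overlapped in every one of the 9. Over all genes, the arrays of one line lay wholly on 1 side of the other in 21.5%. With only 9 genes, these counts of 0 do not set the fate factors apart from all genes. Neither the mesenchymal nor the epithelial factors had a called change. The log2 fold changes, given throughout as SCC FAK-wt minus SCC FAK-/-, ran from -0.19 for Zeb1 to 0.18 for Snai1. In RNA from whole cultures, fewer cells that express a gene and less RNA per cell cannot be told apart. The median absolute log2 fold change was 0.090 over the 9 genes and 0.14 over all 17204. A p above the threshold does not by itself show equal expression, and the intervals of the differences are therefore given. For 8 of 9 genes, all but Snai1, the 95% confidence interval lay within a 1.5-fold change in either direction, as it did for 66.6% of all genes. These intervals bound the array signal. For Grhl2, Trp63 and Ovol1, the dimmest of the 9, changes in transcript can be understated.

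**Figure D1:**
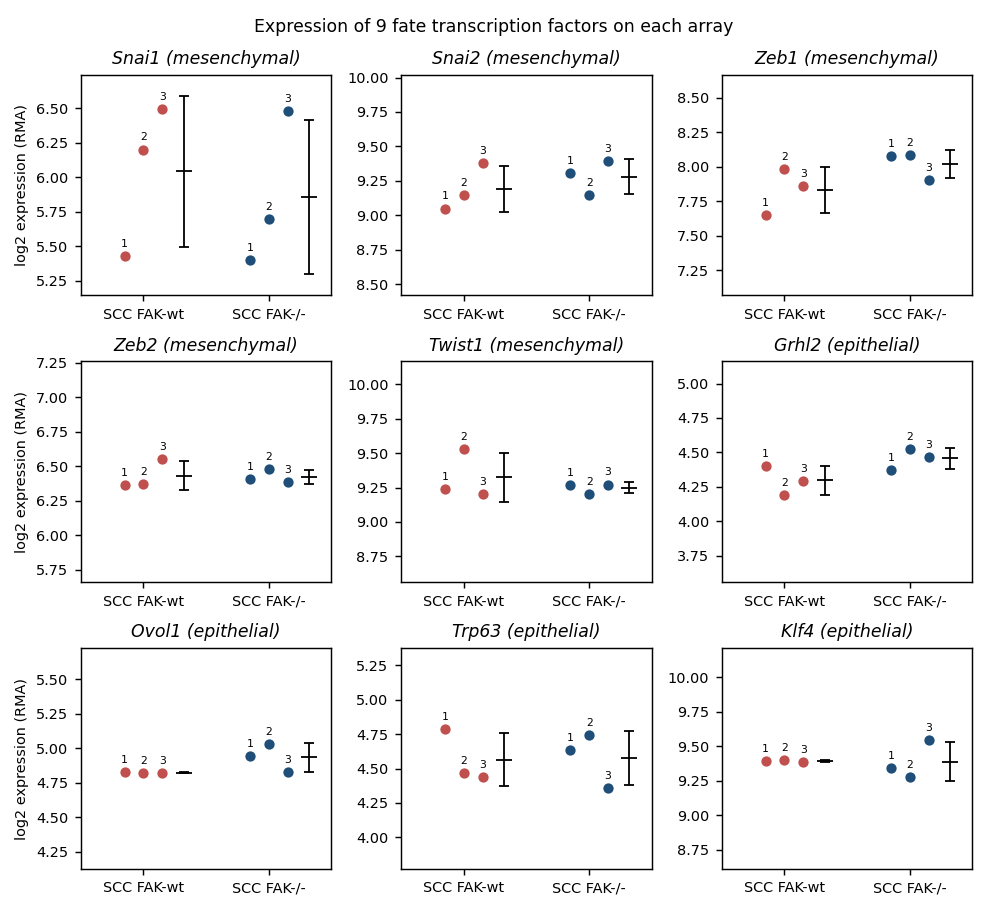
Log2 expression of each fate transcription factor on the 3 SCC FAK-wt arrays (red) and the 3 SCC FAK-/- arrays (blue), numbered by replicate, with the mean and SD of each line in black; every panel spans the same number of log2 units. The lines overlap in all 9 panels, and Snai1 spreads over 1.10 log2 units.

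Snai1 (ENSMUSG00000042821), the Snail repressor and an early-acting factor of the transition, was the most variable of the 9. It read 5.43, 6.20 and 6.49 in SCC FAK-wt replicates 1, 2 and 3 and 5.40, 5.70 and 6.48 in SCC FAK-/- replicates 1, 2 and 3. Both lines held low and high samples and covered almost the same range, 1.06 log2 units in SCC FAK-wt and 1.08 in SCC FAK-/-. The means were 6.04 ± 0.55 (SD, n = 3) and 5.86 ± 0.56 (SD, n = 3), a log2 fold change of 0.18 with a standard error of 0.35 (limma adjusted p = 0.869). The 95% interval, -0.63 to 0.998, allowed nearly a 2-fold change upward, a wider bound than for any of the other 8 genes. The pooled SD within a line was larger than that of 97.5% of all genes. The sign of the difference rested on single arrays, since it was -0.042 without SCC FAK-wt replicate 3 and -0.046 without SCC FAK-/- replicate 1. With the replicate number as a block the same difference had an interval of -0.18 to 0.55 (limma adjusted p = 0.663), within 1.5-fold. The labels share only a number, and over all genes the deviations of same-numbered arrays correlated at just -0.034 to 0.028. Without moderation of the variances the interval was instead -1.07 to 1.44.

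The stretch upstream of Snai1 is shown because Snail proteins bind the E-box CACCTG, and Snai1 is the gene whose values spread most here. The sequence is RefSeq's, the 250 bases before the transcription start on the plus strand of GRCm38.p6, chr2:167537945-167538194, written 5′ to 3′ with the E-box in capitals.
Snai1 upstream: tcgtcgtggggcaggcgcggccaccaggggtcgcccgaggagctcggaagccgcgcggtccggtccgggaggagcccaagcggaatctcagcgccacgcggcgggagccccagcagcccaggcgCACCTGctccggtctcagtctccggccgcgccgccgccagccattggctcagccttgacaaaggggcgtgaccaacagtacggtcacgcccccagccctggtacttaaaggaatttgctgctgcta
CACCTG, sought on both strands, occurred once, from position -126 to -121 counted back from the start. A promoter was found in the RefSeq table for 5 of the 10 listed genes (Snai1, Zeb2, Twist1, Klf4 and Sox2), and 1 of the 5, Snai1, held these letters. Of all 32851 promoters in the table, 17.2% held them within the same length. That share counts promoter entries rather than genes, and a gene can have several, as Zeb2 does. The match describes the sequence and was not tested for binding.

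Snai2 (ENSMUSG00000022676), which encodes Slug, the Snail relative found in basal keratinocytes and wound edges, was steadier. Its values were 9.05, 9.15 and 9.38 in SCC FAK-wt and 9.31, 9.15 and 9.39 in SCC FAK-/- replicates 1 to 3. The highest and lowest samples of the lines lay close together and the groups overlapped. The means were 9.19 ± 0.17 (SD, n = 3) and 9.28 ± 0.13 (SD, n = 3), and the log2 fold change was -0.090, with a 95% interval of -0.39 to 0.21 (limma adjusted p = 0.815). With each array left out it kept its sign, from -0.18 without SCC FAK-wt replicate 3 to -0.018 without SCC FAK-wt replicate 1. The gap between Snai1 and Snai2 within an array changed by 0.27 between the lines (exact permutation test, two-sided, p = 0.6, also 0.6 after adjustment over the 2 pairs of relatives compared). These 2 pairs, here and for the ZEB genes, were chosen after the values were seen.

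Zeb1 (ENSMUSG00000024238), a zinc-finger and homeodomain repressor of E-cadherin, had the most negative difference of the 9. Its values were 7.65, 7.98 and 7.86 in SCC FAK-wt replicates 1, 2 and 3 and 8.08, 8.09 and 7.90 in SCC FAK-/- replicates 1, 2 and 3. Only SCC FAK-wt replicate 2 stood above the lowest SCC FAK-/- sample, replicate 3, so the overlap was small. The means of 7.83 ± 0.17 (SD, n = 3) and 8.02 ± 0.10 (SD, n = 3) gave a log2 fold change of -0.19 with a standard error of 0.12 (limma adjusted p = 0.537). The interval of -0.48 to 0.096 excludes a decrease in SCC FAK-wt of more than 1.39-fold. The difference kept its sign with each array left out, from -0.27 to -0.10, and the smallest adjusted limma p over 15 alternative settings was 0.408.

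Zeb2 (ENSMUSG00000026872), the other ZEB repressor, was nearly level across the arrays. It read 6.37, 6.37 and 6.55 in SCC FAK-wt and 6.41, 6.48 and 6.38 in SCC FAK-/- replicates 1 to 3. All of the SCC FAK-/- values lay inside the SCC FAK-wt range. The means were 6.43 ± 0.11 (SD, n = 3) and 6.42 ± 0.049 (SD, n = 3). The log2 fold change was 0.0091, with an interval of -0.23 to 0.25 (limma adjusted p = 0.982), and the difference between Zeb1 and Zeb2 within an array was 1.40 ± 0.18 (SD, n = 3) in SCC FAK-wt and 1.60 ± 0.077 (SD, n = 3) in SCC FAK-/-. That change of -0.20 in the gap gave p = 0.3 (exact permutation test, two-sided, 0.6 after adjustment over the 2 pairs), and with 3 arrays against 3 this test cannot give a p below 0.1.

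Twist1 (ENSMUSG00000035799), a basic helix-loop-helix factor of mesoderm and of invasive carcinoma, stood out in 1 sample alone. Its values were 9.24, 9.53 and 9.21 in SCC FAK-wt and 9.27, 9.20 and 9.27 in SCC FAK-/- replicates 1 to 3. SCC FAK-wt replicate 2 lay above the other 5 arrays, which spanned 9.20 to 9.27. The means were 9.32 ± 0.18 (SD, n = 3) and 9.25 ± 0.040 (SD, n = 3), a log2 fold change of 0.076 (95% interval -0.20 to 0.35, limma adjusted p = 0.834), which became -0.026 without that sample.

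**Figure D2:**
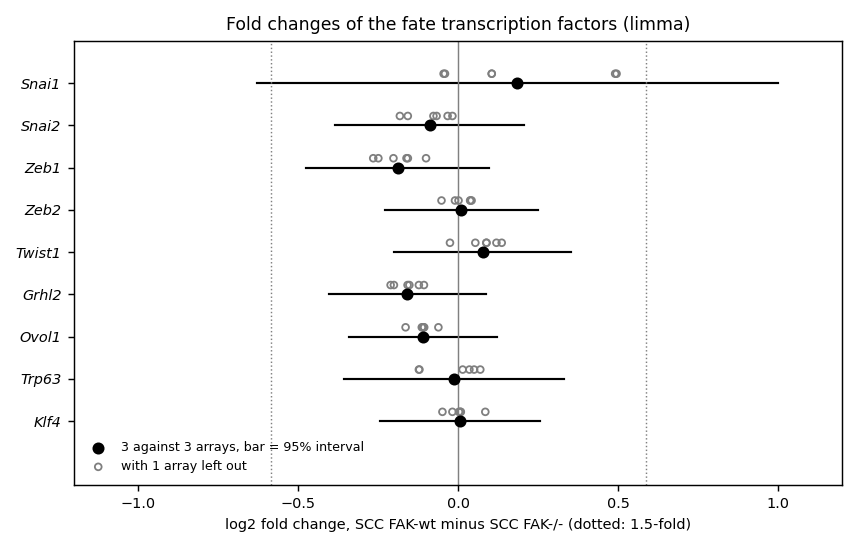
Log2 fold change of each fate transcription factor, SCC FAK-wt minus SCC FAK-/-, with its 95% interval from limma (black) and the values with 1 array left out (open circles); dotted lines mark 1.5-fold. All intervals include 0, and the Snai1 interval alone reaches past the dotted lines.

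Among the factors that hold the epithelial state, Grhl2 (ENSMUSG00000022286), a Grainyhead-like activator of junction genes including E-cadherin, was 4.40, 4.19 and 4.30 in SCC FAK-wt and 4.37, 4.53 and 4.47 in SCC FAK-/- replicates 1 to 3. A single SCC FAK-wt sample, replicate 1, reached above the lowest SCC FAK-/- sample. The means of 4.30 ± 0.10 (SD, n = 3) and 4.46 ± 0.079 (SD, n = 3) gave a log2 fold change of -0.16, with an interval of -0.40 to 0.086 (limma adjusted p = 0.546). It kept its sign with each array left out, from -0.21 to -0.11. Its mean value exceeded that of 30.0% of all genes. Probe sets differ in brightness, so this is no level relative to other genes, but changes of dim genes can be understated on these arrays. By the same measure Klf4, Twist1 and Snai2 were above 88.8%, 88.0% and 87.5% of genes, and Zeb1, Zeb2 and Snai1 above 73.1%, 55.1% and 50.0%.

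Ovol1 (ENSMUSG00000024922), an Ovo-like repressor of mesenchymal genes that acts in keratinocytes leaving the basal layer, read 4.83, 4.82 and 4.82 in SCC FAK-wt and 4.94, 5.03 and 4.83 in SCC FAK-/- replicates 1 to 3. The SCC FAK-wt samples were nearly equal and sat at the lower edge of the SCC FAK-/- range, and the lines overlapped through SCC FAK-/- replicate 3 alone. The log2 fold change was -0.11, between means of 4.82 ± 0.0050 (SD, n = 3) and 4.93 ± 0.10 (SD, n = 3), with an interval of -0.34 to 0.12 (limma adjusted p = 0.679). With each array left out it kept its sign, from -0.16 without SCC FAK-/- replicate 3 to -0.062 without SCC FAK-/- replicate 2. Its mean value was above that of 36.9% of genes. Zeb1, Grhl2 and Ovol1 each gave p = 0.2 in an exact permutation test of the difference (two-sided), and the other 6 genes gave 0.5 or more.

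Trp63 (ENSMUSG00000022510), the p53 relative required for stratified epithelia, has 1 value per array here. The isoforms that its probes cover are not given in the sources used here. Trp63 read 4.78, 4.47 and 4.44 in SCC FAK-wt and 4.63, 4.74 and 4.36 in SCC FAK-/- replicates 1 to 3. High and low samples occurred in both lines. The means were 4.56 ± 0.19 (SD, n = 3) and 4.58 ± 0.20 (SD, n = 3), a log2 fold change of -0.013 (95% interval -0.36 to 0.33, limma adjusted p = 0.982). Its mean exceeded that of 32.8% of genes. Trp63 is a defining marker of basal squamous cells, and without values for keratins its signal could not be set beside other squamous markers.

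Klf4 (ENSMUSG00000003032), a zinc-finger factor of the differentiating epidermis and also a reprogramming factor, read 9.39, 9.40 and 9.39 in SCC FAK-wt and 9.34, 9.28 and 9.55 in SCC FAK-/- replicates 1 to 3. The SCC FAK-wt samples were nearly identical, and the SCC FAK-/- samples lay on both sides of them. The means were 9.39 ± 0.0062 (SD, n = 3) and 9.39 ± 0.14 (SD, n = 3), with a log2 fold change of 0.0054 (95% interval -0.25 to 0.26, limma adjusted p = 0.99). Klf4 had the smallest difference of the 9, and the intervals of Klf4 and Zeb2 each allowed at most 1.19-fold either way, the tightest bounds among the 9.

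**Figure D3:**
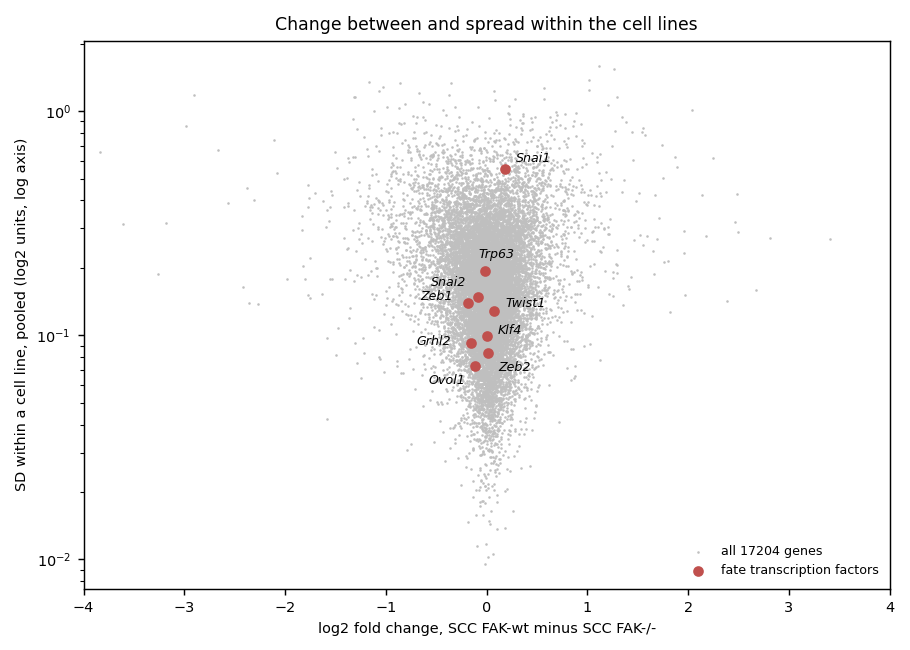
Log2 fold change (x axis, SCC FAK-wt minus SCC FAK-/-) against the SD within a cell line pooled over both lines (y axis, log scale) for all 17204 genes (grey) and the 9 fate transcription factors (red). The 9 lie between -0.19 and 0.18 on the x axis, and Snai1 has a pooled SD of 0.55.

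The 9 genes varied within the lines to very different degrees. The pooled SD was 0.55 for Snai1 and 0.19 for Trp63, and from 0.073 for Ovol1 to 0.15 for Snai2 in the other 7, with medians of 0.13 over the 9 and 0.17 over all genes. After the values were seen, this variation was set beside the spread of the whole array. The interquartile range of all values was 3.997 in SCC FAK-wt replicate 1, 4.072 in SCC FAK-/- replicate 1 and 4.003 in SCC FAK-/- replicate 2. It was wider, at 4.164 in SCC FAK-wt replicate 2, 4.134 in SCC FAK-wt replicate 3 and 4.150 in SCC FAK-/- replicate 3. The cut into 3 and 3 followed no clear gap, since SCC FAK-/- replicate 1 lay about as close to 4.134 as to 4.003. Snai1 was 5.40 to 5.70 on the 3 narrower arrays and 6.20 to 6.49 on the 3 wider ones. Its lowest value, 5.40, was on the widest of the narrower arrays, SCC FAK-/- replicate 1. Trp63 went the other way, at 4.63 to 4.78 on the narrower arrays and 4.36 to 4.47 on the wider ones. Ovol1 also separated these arrays, by a far smaller margin, at 4.83 to 5.03 against 4.82 to 4.83, and the remaining 6 genes overlapped. These 3 arrays and the other 3 did not overlap in 10.7% of all genes. That share is close to the probability of 0.1 for any split of 3 against 3 among interchangeable arrays. The narrower arrays included samples of both lines, and on them Snai1 was 5.43 in SCC FAK-wt against 5.40 and 5.70 in SCC FAK-/-, while on the wider ones it was 6.20 and 6.49 against 6.48.

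**Figure D4:**
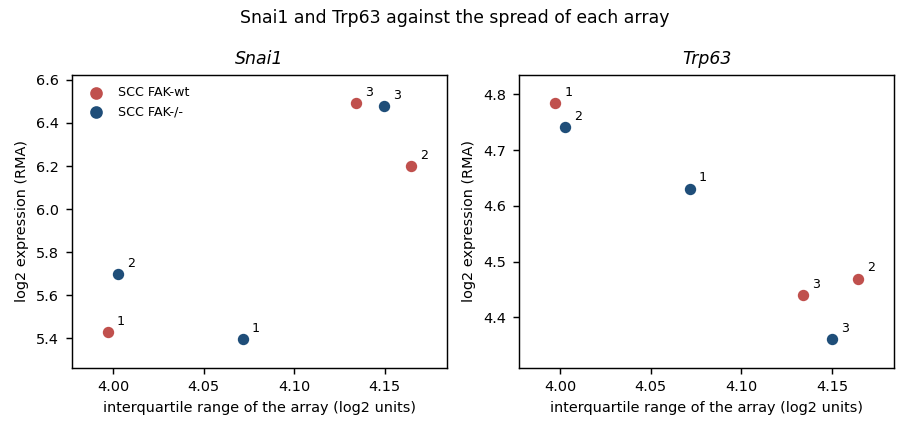
Log2 expression of Snai1 and Trp63 (y axes) against the interquartile range of each array (x axes, log2 units), with SCC FAK-wt in red, SCC FAK-/- in blue and replicate numbers beside the points. Snai1 is 6.20 or higher and Trp63 4.47 or lower on the 3 widest arrays, which come from both lines.

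After the mean of each line was subtracted, the deviations of Trp63 correlated with those of the interquartile range at r = -0.97 over the 6 arrays, a size reached by 1.00% of all genes, and those of Snai1 at 0.82, a size reached by 11.4%. These are descriptions over 6 arrays that share 1 normalization, and the genes were singled out after all 9 had been seen. The part of array spread in the values of Snai1 and Trp63 was not tested beyond a fit with the interquartile range as a covariate. In that fit the log2 fold change of Snai1 was 0.052, with an interval of -0.52 to 0.62 (limma adjusted p = 0.944), and that of Trp63 was 0.042, with an interval of -0.19 to 0.28 (limma adjusted p = 0.883).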

How the data were processed

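The authors made 1 value per Ensembl gene and array, with Robust Multi-array Average (RMA) in the affy package, and deposited these log2 values; the log2 scale was taken from their range, and versions and probe mapping are not given in the sources used here. All 17204 genes were used without a filter. Samples were grouped by their labels. The fit was limma 3.58.1, run in R 4.3.3 with moderated variances (two-sided, cell line as the only term), with Benjamini-Hochberg adjustment over all genes, an adjusted p under 0.05 as the call and 95% intervals from the moderated variances. The listed genes, the tests and the alternatives were chosen with earlier results of these data known, and all listed genes with a value are named. None (0) of the identifiers was found in the symbol table used (GRCm38.p6), so planned lists of related genes, and genes with a like pattern, were not analysed here. Arrays have no read depth, and 3 per line limit the precision.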

Additional observations from a re-analysis of the deposited data

How the results depend on the processing

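None of the fate transcription factors (0) passed an adjusted p of 0.05, or an unadjusted p of 0.01 or 0.05, in limma or in an ordinary linear model per gene, under any of the 15 alternatives. These were a trended, robust prior for the variances, no moderation, median centering, quantile normalization, cyclic loess, weighted arrays, a filter on the dimmest genes (which removes Grhl2 and Trp63), the replicate block, each array left out, and the array spread as a covariate, the last chosen after seeing the data. The intervals of all genes but Snai1 stayed within 1.5-fold under each alternative that kept the gene. That of Snai1 passed 2-fold under 10 of the 15, and was -1.07 to 1.44 without moderation.

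The sign of a difference turned in 16 of 133 fits. With each array left out, the log2 fold change was -0.046 to 0.49 for Snai1, -0.053 to 0.041 for Zeb2 (negative without SCC FAK-wt replicate 3, -0.053, or SCC FAK-/- replicate 3, -0.010), -0.026 to 0.14 for Twist1, -0.12 to 0.069 for Trp63 and -0.050 to 0.084 for Klf4. Trp63 was positive without SCC FAK-wt replicate 2 or 3 (0.035 and 0.049) or SCC FAK-/- replicate 1 or 2 (0.014 and 0.069), after median centering (0.019) and with the array spread as a covariate (0.042). Klf4 was negative without SCC FAK-/- replicate 1 or 2 (-0.018 and -0.050), after quantile normalization (-0.024) and cyclic loess (-0.027), and with that covariate (-0.013); the cause was not tested. Snai2, Zeb1, Grhl2 and Ovol1 kept a negative sign throughout.

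Over all genes, an adjusted p under 0.05 was reached by 141 that were higher and 189 that were lower with FAK. These counts were 247 and 302 with the trended prior, 14 and 25 without moderation, 80 and 115 with the array spread, and 44 to 77 and 64 to 121 with an array left out, lower for each of the 6. At an unadjusted p under 0.01, 549 were higher and 630 lower; the higher were 329 to 481 with an array left out (329 without SCC FAK-/- replicate 2). The balance depended on scaling: median centering gave 149 and 155 at the adjusted threshold and 641 and 539 at the unadjusted one. The replicate block gave 69 higher and 91 lower at the adjusted threshold and changed no call among the fate factors. Deviations of same-numbered arrays correlated at -0.034 to 0.028, and the labels share only a number.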
